A study of Mus musculus with 4 samples.

Results

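The 68 genes described here encode the conjugating enzymes of phase II metabolism together with the carboxylesterases. They were taken from the authors' comparison table by symbol: the UDP-glucuronosyltransferases of families Ugt1 and Ugt2, the cytosolic glutathione S-transferases (Gsta, Gstm, Gstp, Gstt, Gsto and the mitochondrial Gstk), the microsomal Mgst genes, the sulfotransferases (Sult) and the carboxylesterases (Ces). The rule matched 69 probe sets. Sult6b1 had 2 of them and was represented by the brighter probe set, which left 68 of the 30861 distinct symbols named in the table. The symbol rule itself used no expression value, apart from the choice between the 2 Sult6b1 probe sets. The members were, however, chosen with earlier results of these data known. The members are 1 Ugt1 gene, 8 Ugt2, 3 Gsta, 6 Gstm, 2 Gstp, 4 Gstt, 2 Gsto, 1 Gstk, 3 Mgst, 18 Sult and 20 Ces genes.

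The data are log2 intensities from 4 GeneChip Mouse Gene 2.0 ST arrays hybridised with total RNA from the colon of Balb/c mice, an inbred albino strain. The maltodextrin group (samples 3 and 4) drank water containing 5% maltodextrin, a short-chain glucose polymer used as a food additive, and the control group (samples 1 and 2) drank water without it, both for 45 days. All samples share strain, tissue and duration, and the labels give no age, sex or genetic change. Whether samples 3 and 4, or 1 and 2, are different mice is not stated in the labels. The p-values therefore reflect the spread between these samples alone, and that spread may be technical. An exact permutation test of 2 arrays against 2 could not give a two-sided p below 0.333, and the number of arrays limits the precision of every value.

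Phase II enzymes attach a polar group to a lipophilic compound, so that it dissolves in water and can be exported from the cell. Glucuronosyltransferases transfer glucuronic acid from UDP-glucuronate, sulfotransferases transfer a sulfonate group from the activated sulfate PAPS, and glutathione S-transferases couple the tripeptide glutathione to electrophiles. Carboxylesterases cleave ester and amide bonds, in drugs as well as in acylglycerols and other lipid esters, and the gut epithelium carries all of these activities because it meets dietary, microbial and biliary compounds first.

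The arrays differed in ways that touch the members. Array medians lay between 5.20 and 5.35. The epithelial markers were all above the receptor level, defined here as the 95th percentile (5.89) of 1515 olfactory, vomeronasal and taste receptor probe sets, and so were the absorptive colonocyte markers. Hoxb13, a gene of the distal colon, read 3.78 on maltodextrin 3 and 9.43 on maltodextrin 4, against 8.18 on control 1 and 8.36 on control 2. Hoxd13 read 3.97 and 8.65 with maltodextrin, against 9.11 and 10.01 in controls. Maltodextrin 3 was thus below the receptor level for both distal Hox genes. The 11 pancreatic acinar markers had a median of 5.06 on maltodextrin 3 and 4.82 on maltodextrin 4, against 4.80 on control 1 and 9.12 on control 2. Their median was thus above the receptor level on control 2 alone. Single markers were above it elsewhere too, among them Amy2a5 on control 1, at 7.63, Ctrb1 on maltodextrin 3, at 6.33, and Cela1 on all 4 arrays. In bulk tissue fewer cells of a type and less RNA per cell cannot be told apart. Marker lists of other cell types also differed between the groups, and their part in the members' values was not tested. Calls here use the nominal criterion, defined with the members' counts. By it 4 of 8 goblet cell markers, 5 of 6 macrophage markers and 4 of 6 mast cell markers were higher. Of all named probe sets 8.51% were called higher, and 17.4% of those above the receptor level. The respective median differences were 0.64, 1.17 and 2.39 on the log2 scale. All 6 mast cell markers were highest on maltodextrin 3, and only 3 of them had means above the receptor level. The mast cell medians were 8.26 and 6.04 with maltodextrin, against 4.46 and 3.79 in controls. The 6 B cell markers had a median difference of -1.10 and the 9 epithelial markers -0.23. Of these, 1 B cell marker and 0 epithelial markers were called lower, where 3.56% of all named probe sets were.

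Of the 68 members, 12 were higher and 1 was lower in the maltodextrin arrays at the nominal criterion, meaning a 1.5-fold or larger difference whose limma p, before adjustment, was under 0.05. Among all 32202 named probe sets 8.51% were higher and 3.56% lower by the same criterion, against 17.6% of the members higher. None of the members, and none of all named probe sets (0.0%), had a limma Benjamini-Hochberg adjusted p under 0.05. The smallest adjusted p of a member was 0.232, and 14 members had an unadjusted p under 0.05, a level that 14.6% of all named probe sets reached. By the methods' t-test, an equal-variance test per probe set, 5 members were higher and 0 lower, and the authors' deposited table gives the same 5: Gstm6, Gstm7, Gstt1, Gstt2 and Gstt3. Both maltodextrin arrays lay above both control arrays for 21 members and below both for 12, where 25.6% and 24.7% of all named probe sets did so. The median difference of the members was 0.11 on the log2 scale, beside -0.04 over all named probe sets.

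The share of higher calls depended on brightness over the whole array. Among the 13447 named probe sets with a mean above the receptor level, the nominal criterion called 17.4% higher and 3.18% lower. Among the 18755 at or below it, 2.15% were called higher and 3.84% lower. Of the members, 34 had a mean above the receptor level and 34 at or below it. Of the bright members 8 (23.5%) were called higher, and of the dim members 4 (11.8%): Gsta3, Gstm3, Gstm6 and Ces1d. The bright members had a median difference of 0.50, beside 0.21 over all bright named probe sets, and the dim members one of -0.07. These shares and medians are descriptions, since a gene can pass the level through the group in which it is high.

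**Figure D1:**
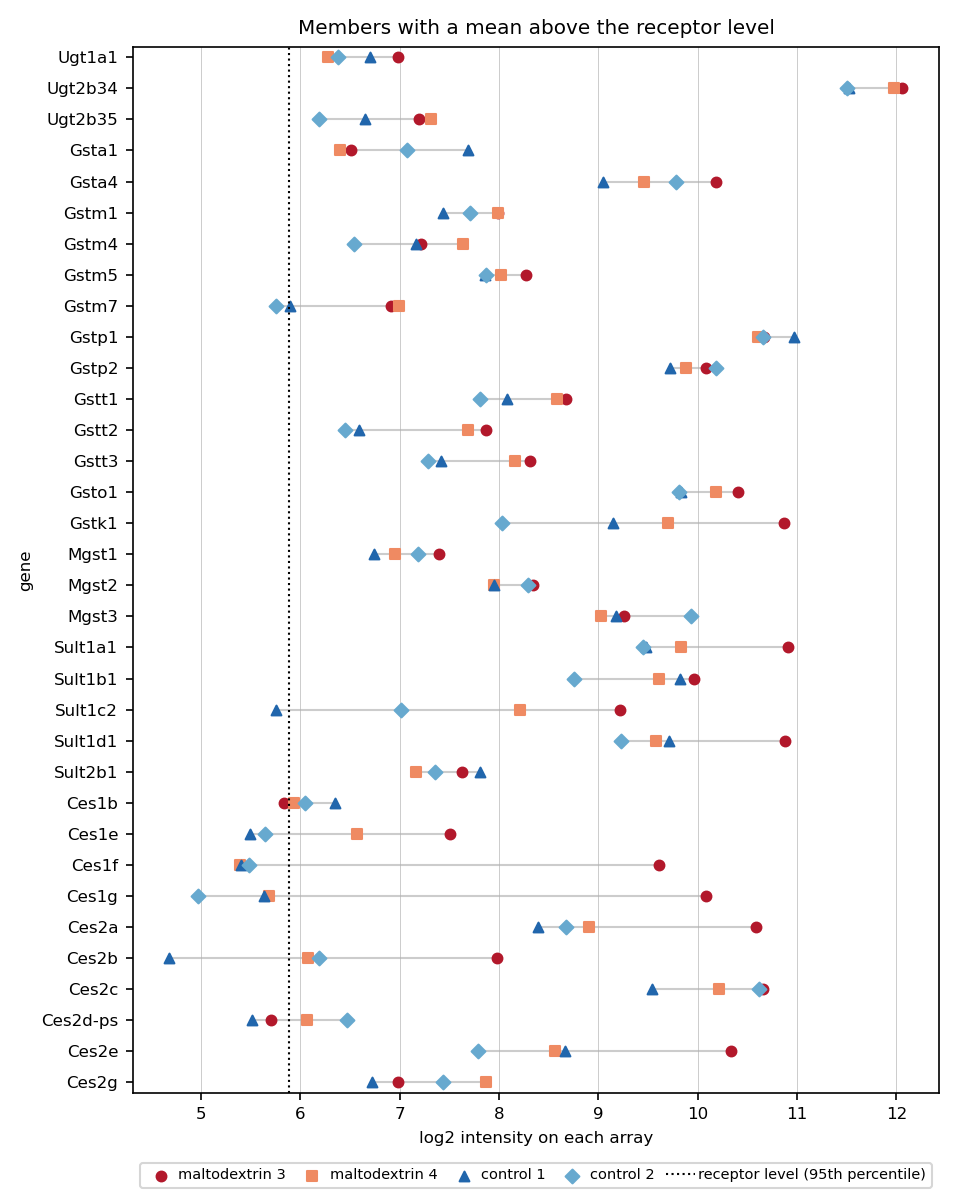
Log2 intensity (x axis) of the 34 members with a mean above the receptor level, on each of the 4 arrays; rows are genes and the dotted line is the receptor level of 5.89. Gstm7, Gstt2 and Gstt3 show narrow pairs of points within each group, whereas Ces1f, Ces1g and several other genes show a single maltodextrin 3 point far to the right.

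**Figure D2:**
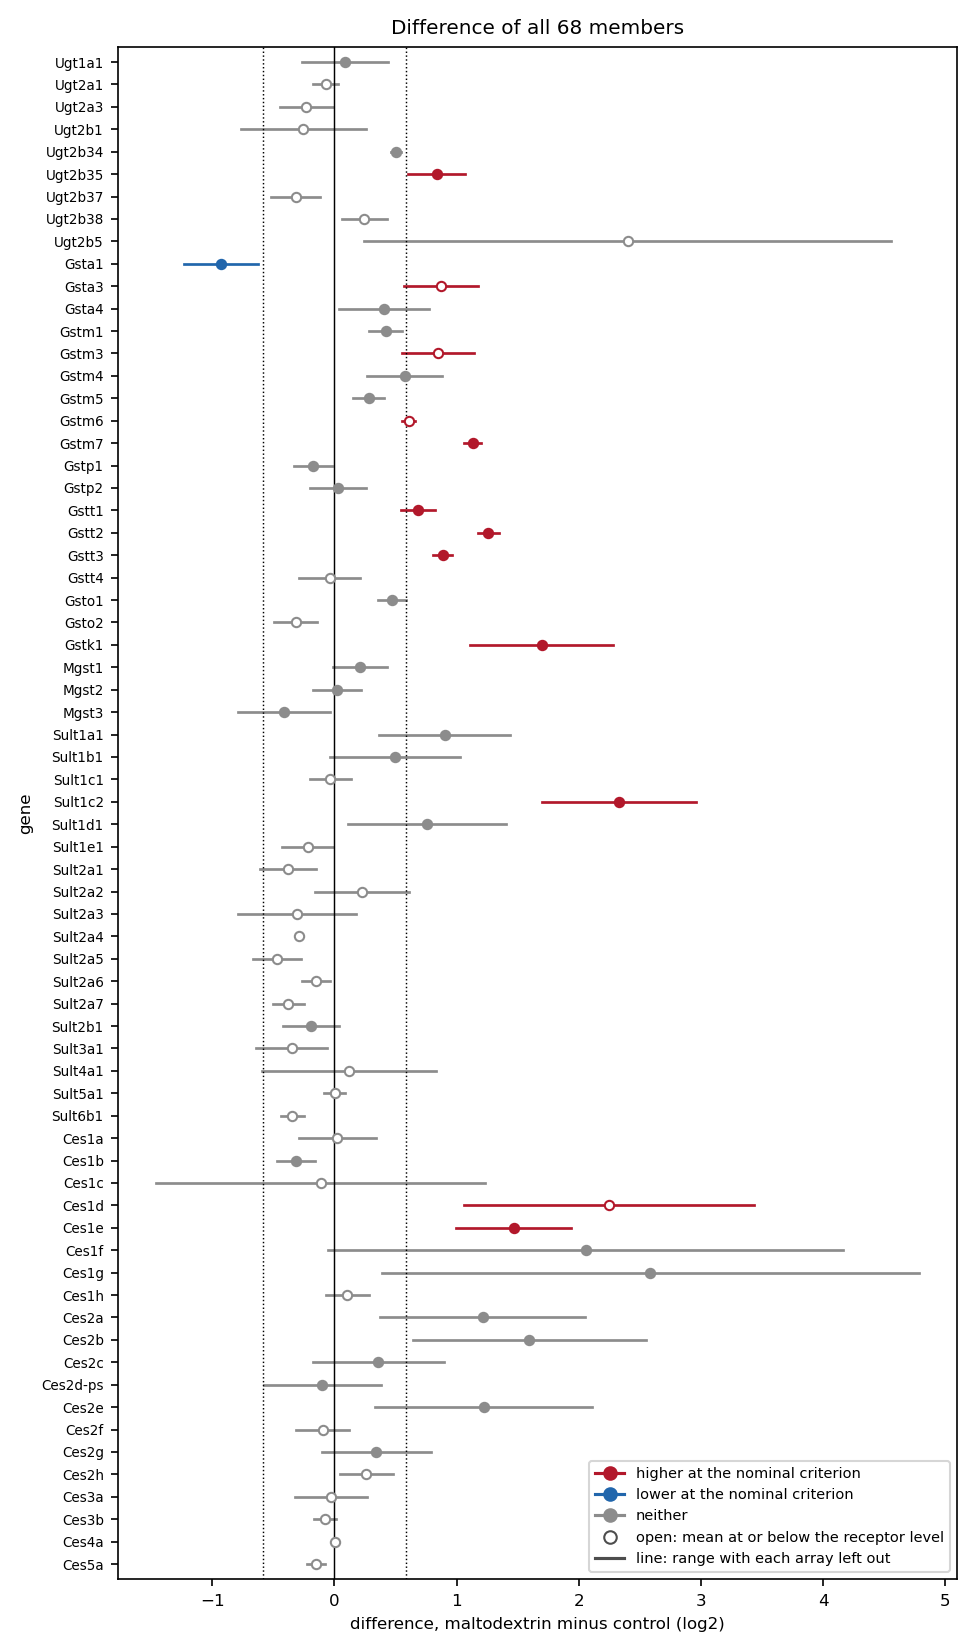
Difference of group means, maltodextrin minus control, on the log2 scale for all 68 members, with the lines spanning the values obtained when each array in turn was left out. Filled points have a mean above the receptor level, open points do not, and dotted lines mark the log2 of a 1.5-fold difference; 12 members are drawn as higher and Gsta1 as lower.

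Of the 4 theta-class glutathione S-transferases, 3 were higher at the nominal criterion and had both maltodextrin arrays above both control arrays. Of all named probe sets 8.51% were called higher and 25.6% had groups apart upward, and of bright ones 17.4% and 45.6%. Theta enzymes accept small halogenated and epoxide substrates, and their 4 mouse genes lie side by side on chromosome 10, in the order Gstt3, Gstt1, Gstt4 and Gstt2 between chr10:75774117-75781422 and chr10:75831842-75837419 (GRCm38.p6). Gstt2 read 7.87 and 7.69 on maltodextrin 3 and 4, against 6.59 and 6.45 on control 1 and 2. Each maltodextrin array was thus more than a log2 unit above each control array. The difference was 1.26 ± 0.18 on the log2 scale (SE, 2 arrays a group), a 2.40-fold higher level, with a limma unadjusted p of 0.00134 and an adjusted p of 0.232. The difference ran between 1.17 and 1.35 when any single array was left out, and Gstt2 met the criterion under each of the 14 alternatives run.

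Gstt3 read 8.32 and 8.16 with maltodextrin, against 7.42 and 7.29 in controls. The groups did not overlap, and the arrays within a group lay closer together than the groups. The difference was 0.89 ± 0.18 (1.85-fold, limma adjusted p of 0.246), and the criterion was missed without maltodextrin 3. Gstt1, the best studied theta enzyme, read 8.67 and 8.58 with maltodextrin, against 8.08 and 7.80 in controls. Its groups did not overlap either. The difference of Gstt1 was 0.68 ± 0.19 (1.61-fold, limma adjusted p of 0.286), and it missed the criterion without maltodextrin 3, without maltodextrin 4, without control 2 and, at 0.50, after a further quantile normalization. Gstt4 read 4.07 and 4.57 with maltodextrin, against 4.17 and 4.54 in controls, below the receptor level on all 4. In the authors' deposited table, Gstt1, Gstt2 and Gstt3 had folds of 1.61, 2.40 and 1.85 and step-up p-values of 0.459, 0.413 and 0.424.

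The 6 mu-class genes named in the table lie in a cluster on chromosome 3, and all 6 read higher in both maltodextrin samples than in both controls, where 25.6% of named probe sets and 45.6% of bright ones did so. After a further quantile normalization 4 of the 6 still had non-overlapping groups, and all 6 differences remained positive. The median difference of the 6 was 0.59. At the nominal criterion 3 of the 6 genes were higher, beside 8.51% of all and 17.4% of bright named probe sets. Gstm7 (chr3:107926334-107931877) read 6.92 and 6.99 with maltodextrin, against 5.90 and 5.75 in controls. The arrays of each group lay close together, and the control arrays lay about at the receptor level. The difference was 1.13 ± 0.18 (2.19-fold, limma unadjusted p of 0.00179, adjusted p of 0.232), ran from 1.06 to 1.20 without single arrays and met the criterion under each of the 14 alternatives run.

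Of the other mu genes, Gstm6 and Gstm3 also met the criterion, with means at or below the receptor level. Gstm6 read 5.11 and 5.22 with maltodextrin, against 4.56 and 4.55 in controls, and Gstm3 read 6.08 and 5.49 with maltodextrin, against 4.69 and 5.18 in controls. Neither kept the call in every left-out fit: Gstm6 missed it without either maltodextrin array, and Gstm3 without maltodextrin 3 or control 1. Gstm3 also missed it by the methods' t-test and by the authors' deposited p-value. Gstm1, the main mu enzyme of mouse liver, read 7.99 on both maltodextrin arrays, against 7.44 and 7.70 on the control arrays, a difference of 0.42 ± 0.19 (limma adjusted p of 0.392). Gstm4 read 7.22 and 7.64 with maltodextrin, against 7.16 and 6.54 in controls. Gstm5 read 8.27 and 8.02 with maltodextrin, against 7.86 and 7.87 in controls, which left the groups apart by less than 0.2 at their nearest arrays.

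Promoter windows are shown for mu and theta genes because all 6 mu genes and 3 of the 4 theta genes had non-overlapping groups, and because Gstm5 carries a match to the antioxidant response element, the site bound by NRF2. Each window is the 250 bases before the transcript start that the RefSeq promoter table uses (GRCm38.p6), written 5′ to 3′ on the gene's strand, with a match to TGACNNNGC on either strand in capitals. The windows are Gstm7 on the minus strand (chr3:107931818-107932067), Gstm5 on the plus strand (chr3:107895604-107895853), and Gstt3 (chr10:75781423-75781672) and Gstt1 (chr10:75797732-75797981) on the minus strand. That start can lie inside the gene's whole span: all 250 bases of the Gstt1 window and 60 of those of Gstm7 do.
Gstm7: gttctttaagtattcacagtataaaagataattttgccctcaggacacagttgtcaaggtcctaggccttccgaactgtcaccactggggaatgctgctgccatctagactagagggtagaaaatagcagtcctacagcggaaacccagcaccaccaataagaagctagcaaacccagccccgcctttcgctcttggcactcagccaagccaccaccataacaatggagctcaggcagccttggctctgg
Gstm5: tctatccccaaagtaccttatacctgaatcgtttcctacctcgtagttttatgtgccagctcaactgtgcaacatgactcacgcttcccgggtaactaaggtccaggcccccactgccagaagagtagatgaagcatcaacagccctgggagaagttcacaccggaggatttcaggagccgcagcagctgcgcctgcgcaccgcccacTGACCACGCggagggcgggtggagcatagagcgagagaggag
Gstt3: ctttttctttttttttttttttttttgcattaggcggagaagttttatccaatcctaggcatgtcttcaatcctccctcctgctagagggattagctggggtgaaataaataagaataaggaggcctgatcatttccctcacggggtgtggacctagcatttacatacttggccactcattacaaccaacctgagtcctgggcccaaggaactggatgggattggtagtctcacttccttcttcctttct
Gstt1: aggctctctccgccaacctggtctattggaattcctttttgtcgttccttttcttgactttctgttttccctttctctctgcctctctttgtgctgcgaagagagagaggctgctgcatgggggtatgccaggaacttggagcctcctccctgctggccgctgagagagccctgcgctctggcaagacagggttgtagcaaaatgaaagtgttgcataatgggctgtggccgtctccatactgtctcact

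Of these 4 windows that of Gstm5 held a match, starting 42 bases before the start on the gene's own strand, and those of Gstm7, Gstt3 and Gstt1 held none within their 250 bases. Of the 57 members with a listed window, 3 (5.26%) held the motif: Gsta3, Gstm5 and Mgst1. Over all 27025 listed windows 10.1% held it. The share among the members was thus below that over all windows, and a window of this length says nothing of sites farther away.

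Gstk1 had the highest difference of all glutathione S-transferases. The kappa enzyme resides in mitochondria and peroxisomes, and its gene lies at chr6:42245935-42250441. Gstk1 read 10.87 and 9.70 with maltodextrin, against 9.14 and 8.03 in controls. All 4 arrays were bright, the groups did not overlap, and within each group the arrays lay over a log2 unit apart. The difference was 1.70 ± 0.56 (3.25-fold, limma unadjusted p of 0.0316, adjusted p of 0.311). It was 1.11 without maltodextrin 3 and 1.14 without control 2, and neither fit met the criterion. By the methods' t-test and by the authors' deposited p-value Gstk1 missed the criterion too.

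The alpha class had a call in each direction at the nominal criterion. Gsta1 (chr9:78230669-78242683), a detoxifying enzyme known from liver and gut, was the only member called lower. It read 6.51 and 6.40 with maltodextrin, against 7.69 and 7.08 in controls. Both maltodextrin arrays lay below both control arrays. The difference was -0.93 ± 0.26 (0.53-fold, limma unadjusted p of 0.0193, adjusted p of 0.288), missed the criterion without either maltodextrin array, and rests on a probe set that the file marks as matching several places. Gsta3, which detoxifies aflatoxin epoxide in mouse liver, was called higher with a mean at or below the receptor level: 6.30 and 5.70 with maltodextrin, against 4.86 and 5.38 in controls. The call of Gsta3 was missed without maltodextrin 3 and without control 1. Gsta1 and Gsta3 both missed the criterion by the methods' t-test and by the authors' deposited p-value. Gsta4, which conjugates the lipid peroxidation product 4-hydroxynonenal, read 10.19 and 9.46 with maltodextrin, against 9.05 and 9.78 in controls, with overlapping groups.

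The pi, omega and microsomal genes, all bright except Gsto2, met the criterion in neither direction. Gstp1, the pi enzyme of many epithelia, read 10.67 and 10.60 with maltodextrin, against 10.97 and 10.66 in controls, and Gstp2 read 10.09 and 9.88 with maltodextrin, against 9.72 and 10.18 in controls. Gsto1, an omega enzyme with thioltransferase activity, read 10.41 and 10.18 with maltodextrin, against 9.84 and 9.81 in controls, with a difference of 0.47 ± 0.18 (1.39-fold, limma adjusted p of 0.347). Its groups did not overlap. Gsto2 read 4.41 and 4.76 with maltodextrin, against 4.89 and 4.93 in controls, so that its groups were apart in the other direction. The membrane-bound Mgst1, Mgst2 and Mgst3 had differences of 0.21, 0.02 and -0.41, all with overlapping groups. Mgst3 read 9.26 and 9.03 with maltodextrin, against 9.18 and 9.94 in controls.

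Among the glucuronosyltransferases, 3 of 9 were bright: Ugt1a1, Ugt2b34 and Ugt2b35. Ugt1a1 (chr1:88211959-88220002), the enzyme that conjugates bilirubin, read 6.99 and 6.28 with maltodextrin, against 6.71 and 6.38 in controls, so that the groups overlapped. It was the only Ugt1 gene among the rows, and its sign turned after a further quantile normalization and without maltodextrin 3 or control 2. Ugt2b34 (chr5:86889770-86906937) read 12.06 and 11.98 with maltodextrin, against 11.52 and 11.51 in controls. The pairs were tight and apart, with a difference of 0.50 ± 0.17 (limma unadjusted p of 0.0341, adjusted p of 0.315), and its fold of 1.42 was under 1.5. Ugt2b35 (chr5:87000860-87013274) read 7.20 and 7.32 with maltodextrin, against 6.65 and 6.19 in controls. It was higher at the nominal criterion by 0.84 ± 0.23 (1.79-fold, limma adjusted p of 0.281), but not without either maltodextrin array. Ugt2b35 also missed the criterion by the methods' t-test and by the authors' deposited p-value.

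Ugt2b5 (chr5:87124946-87140340), which in mouse glucuronidates androgens and phenols, showed a different form. It read 7.05 on maltodextrin 3 and 2.72 on maltodextrin 4, against 2.43 on control 1 and 2.54 on control 2. A single array was above the receptor level, and the other 3 were well below it. The difference of 2.40 ± 1.43 (limma adjusted p of 0.478) was 0.24 without maltodextrin 3. The remaining Ugt2 genes, Ugt2a1, Ugt2a3, Ugt2b1, Ugt2b37 and Ugt2b38, had means between 3.06 and 5.01, at or below the receptor level. None of these 5 had a group mean difference over 0.32 in size.

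Most sulfotransferases gave little signal: 13 of 18 had a mean at or below the receptor level, among them all 7 Sult2a genes, the bile acid and steroid sulfotransferases of liver, with means between 3.04 and 4.40. Sult1e1, the oestrogen sulfotransferase, had a mean of 3.75. Both maltodextrin arrays lay below both control arrays for 7 of the 18, where 24.7% of named probe sets and 32.9% of dim ones did so. These 7 were all dim: 5 Sult2a genes, Sult3a1 and Sult6b1. After a further quantile normalization 4 of the 18 had this form. The 5 bright genes were Sult1a1, Sult1b1, Sult1c2, Sult1d1 and Sult2b1. Sult1c2 (chr17:53829637-53845958), a cytosolic phenol sulfotransferase, was the only one to meet the criterion. It read 9.22 and 8.21 with maltodextrin, against 5.76 and 7.02 in controls. Both maltodextrin arrays were over a log2 unit above both control arrays, and each pair was itself about a log2 unit apart. The difference was 2.33 ± 0.56 (5.03-fold, limma unadjusted p of 0.0102, adjusted p of 0.26), and it ran from 1.70 to 2.96 without single arrays, still at the criterion in all 4 such fits. By the methods' t-test its unadjusted p missed the threshold.

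Sult1a1 (chr7:126672865-126690443), the main phenol sulfotransferase, read 10.91 and 9.83 with maltodextrin, against 9.48 and 9.45 in controls. The control arrays were alike, maltodextrin 4 lay a little above them and maltodextrin 3 over a log2 unit higher. The difference was 0.90 ± 0.39 (limma adjusted p of 0.379), and 0.37 without maltodextrin 3. Sult1d1 (chr5:87554650-87569006), which sulfonates catecholamines in mouse, read 10.88 and 9.58 with maltodextrin, against 9.72 and 9.23 in controls, and its difference of 0.76 was 0.11 without maltodextrin 3. For both genes maltodextrin 3 stood apart from the other 3 arrays. Sult1b1, active on thyroid hormones and phenols, read 9.96 and 9.61 with maltodextrin, against 9.83 and 8.76 in controls, with overlapping groups. Sult2b1, the cholesterol sulfotransferase of skin and gut, read 7.63 and 7.16 with maltodextrin, against 7.81 and 7.36 in controls, and its groups overlapped too.

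The carboxylesterases differed by gene and by array. All 20 lie on chromosome 8, where Ces1a to Ces1h, followed by Ces5a, form a group at chr8:93020214-93535879 and Ces2a to Ces2h with Ces3a, Ces3b and Ces4a a second group at chr8:104734003-105150109. Of the 20, 10 were bright, 2 met the nominal criterion (Ces1d and Ces1e) and 4 had both maltodextrin arrays above both control arrays. Another 2, Ces1b and Ces5a, had both maltodextrin arrays below both control arrays. Over all named probe sets 8.51% were called higher, 25.6% had groups apart upward and 24.7% downward. Ces1e (chr8:93201218-93229631) read 7.50 and 6.57 with maltodextrin, against 5.49 and 5.65 in controls. The groups did not overlap, and only the maltodextrin arrays were above the receptor level. The difference was 1.47 ± 0.35 (2.76-fold, limma unadjusted p of 0.0106, adjusted p of 0.26), and it ran from 0.999 to 1.93 without single arrays. Ces1e missed the criterion by the methods' t-test and by the authors' deposited p-value.

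Ces1g (chr8:93302369-93337209), a liver and intestinal lipid ester hydrolase in mouse, was high on a single array. It read 10.09 on maltodextrin 3 and 5.69 on maltodextrin 4, against 5.63 on control 1 and 4.97 on control 2. Maltodextrin 4 lay next to control 1. Its difference of 2.59 ± 1.47 (limma adjusted p of 0.462) was 0.39 without maltodextrin 3. Ces1f (chr8:93256236-93279766), its neighbour, read 9.61 on maltodextrin 3 and 5.39 on maltodextrin 4, against 5.40 and 5.49 on the control arrays. Without maltodextrin 3 its difference of 2.06 ± 1.40 turned to -0.05. Ces1d (chr8:93166072-93197804), a triacylglycerol hydrolase known from adipose tissue and liver, read 7.78 and 5.40 with maltodextrin, against 4.24 and 4.45 in controls, with the groups apart. Its difference of 2.25 ± 0.80 (4.75-fold, limma adjusted p of 0.327) was 1.06 without maltodextrin 3, and it missed the criterion without control 1 and without control 2. Ces1d also missed the criterion by the methods' t-test and by the authors' deposited p-value.

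Ces1c (chr8:93099015-93131283), which encodes a carboxylesterase secreted into mouse plasma, ran the other way between the maltodextrin arrays. It read 4.13 on maltodextrin 3 and 6.82 on maltodextrin 4, against 5.58 and 5.60 on the control arrays. The difference was -0.11 with all arrays and 1.23 without maltodextrin 3. Some liver markers were also high on maltodextrin 4: Alb read 5.47 and 9.38 with maltodextrin, against 5.81 and 5.88 in controls. Others were not, and Tat read 8.48 and 8.75 with maltodextrin, against 7.98 and 9.67 in controls. The 7 measured liver markers had a median of 5.22 on maltodextrin 3 and 7.75 on maltodextrin 4, against 5.81 and 5.88 on control 1 and 2, and summed linear intensities of 702 and 2393 with maltodextrin, against 842 and 1708 in controls. Without Alb the sums were 658 and 1725 with maltodextrin, against 786 and 1649 in controls. Apoa2, Fgb and Ahsg, which help define liver, had means at or below the receptor level, and the part of liver transcripts in the Ces1c values was not tested.

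In the Ces2 group, Ces2a, Ces2c and Ces2e, intestinal esterases, were bright on all 4 arrays. Ces2a (chr8:104734003-104741634) read 10.58 and 8.91 with maltodextrin, against 8.39 and 8.67 in controls, and its difference of 1.21 ± 0.58 (limma adjusted p of 0.41) was 0.38 without maltodextrin 3. Ces2e (chr8:104926260-104934672) read 10.34 and 8.56 with maltodextrin, against 8.66 and 7.78 in controls. Maltodextrin 3 was over a log2 unit above the other 3 arrays for both genes, and maltodextrin 4 lay near control 1 or control 2. Ces2c, a diacylglycerol hydrolase in mouse, read 10.66 and 10.22 with maltodextrin, against 9.54 and 10.62 in controls, so that control 2 was as bright as maltodextrin 3. Ces2b read 7.98 and 6.08 with maltodextrin, against 4.68 and 6.18 in controls, and Ces2g read 6.98 and 7.87 with maltodextrin, against 6.73 and 7.43 in controls. The groups overlapped for all 3. Ces1b and the transcribed pseudogene Ces2d-ps had means just above the receptor level, with Ces1b at 5.84 and 5.93 with maltodextrin, against 6.35 and 6.05 in controls. Ces1a, Ces1h, Ces2f, Ces2h, Ces3a, Ces3b, Ces4a and Ces5a had means at or below the receptor level, and their differences lay between -0.15 and 0.26.

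**Figure D3:**
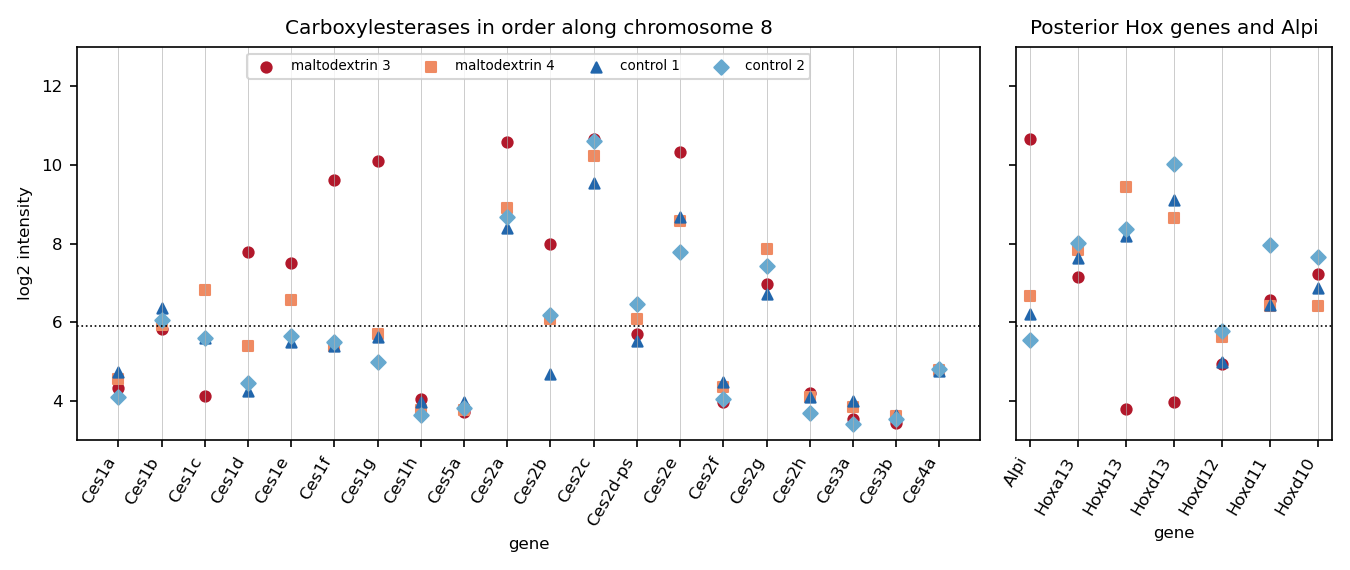
Log2 intensity of the 20 carboxylesterases on each array, ordered along chromosome 8 (left, x axis is gene order and not distance), beside the posterior Hox genes and Alpi (right); the dotted line is the receptor level. Maltodextrin 3 stands alone at the top for Ces1f and Ces1g and alone at the bottom for Hoxb13 and Hoxd13.

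The high values of maltodextrin 3 formed a pattern across families, counted after the values had been seen. On 11 members (16.2%) maltodextrin 3 was over a log2 unit above each of the other 3 arrays: Ces1d, Ces1f, Ces1g, Ces2a, Ces2b, Ces2e, Gstk1, Sult1a1, Sult1c2, Sult1d1 and Ugt2b5. Over all named probe sets 0.674% had this form. The same form occurred for maltodextrin 4 on 1 member, Ces1c, against 0.264% of all, and for control 1 and control 2 on 0 members, against 2.87% and 1.66%. The maltodextrin arrays were over 2 log2 units apart on 5 members (Ces1c, Ces1d, Ces1f, Ces1g and Ugt2b5), against 0.422% of named probe sets. The control arrays were that far apart on 0 members, against 1.71% of named probe sets. No glutathione S-transferase of the alpha, mu, pi, theta or omega class was among the 11.

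Position and cell type markers also differed on maltodextrin 3, and their part in these values was not tested. The 6 posterior Hox genes had summed linear intensities of 446 on maltodextrin 3 and 1541 on maltodextrin 4, against 1278 on control 1 and 2128 on control 2, with Hoxd12 at or below the receptor level. Without Hoxb13 and Hoxd13 the sums were 416 and 448 with maltodextrin, against 434 and 766 in controls. The low sum of maltodextrin 3 thus rests mostly on those genes. Of the other 4, Hoxa13 and Hoxd12 also read lowest on maltodextrin 3, and Hoxd10 and Hoxd11 did not. Alpi, the intestinal alkaline phosphatase, read 10.65 and 6.66 with maltodextrin, against 6.21 and 5.54 in controls. The 10 small intestine markers summed to 2143 and 1036 with maltodextrin, against 705 and 744 in controls, but 8 of the 10, among them Lct, Sis, Apoa4 and Fabp6, had means at or below the receptor level. Without Alpi the sums were 535 and 935 with maltodextrin, against 631 and 697 in controls, which put maltodextrin 3 lowest. Rbp2, the other bright marker of that list, read 8.28 and 9.50 with maltodextrin, against 8.60 and 8.87 in controls. The 8 adipocyte markers, given because Ces1d is also a gene of fat, summed to 2181 and 743 with maltodextrin, against 1807 and 4327 in controls, which put control 2 highest, and Adipoq and Lep were at or below the receptor level.

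**Figure D4:**
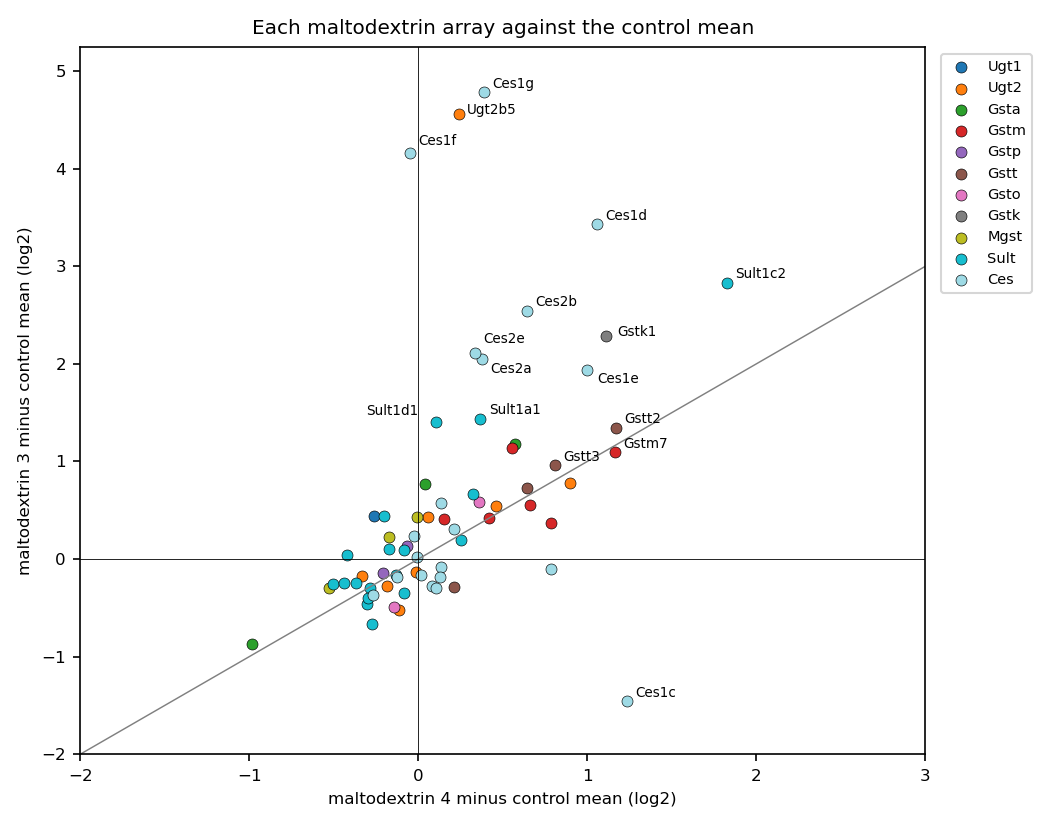
Difference of maltodextrin 3 (y axis) and of maltodextrin 4 (x axis) from the control mean, on the log2 scale, for the 68 members coloured by family; the grey line marks equal differences, and both axes share the control mean. Gstm7, Gstt2 and Gstt3 lie near the line, Ces1f, Ces1g and Ugt2b5 lie far above it and Ces1c lies below it.

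Promoter windows of 3 genes high on maltodextrin 3 are shown because the Sult1d1 window is the only member window with a match to the xenobiotic response element TNGCGTG, bound by the aryl hydrocarbon receptor. Capitals mark that match, searched on either strand. The windows, 250 bases before the RefSeq start in GRCm38.p6, 5′ to 3′ on the gene's strand, are Sult1d1 (chr5:87569007-87569256), Sult1c2 (chr17:53845959-53846208) and Ugt2b5 (chr5:87140341-87140590), all on the minus strand.
Sult1d1: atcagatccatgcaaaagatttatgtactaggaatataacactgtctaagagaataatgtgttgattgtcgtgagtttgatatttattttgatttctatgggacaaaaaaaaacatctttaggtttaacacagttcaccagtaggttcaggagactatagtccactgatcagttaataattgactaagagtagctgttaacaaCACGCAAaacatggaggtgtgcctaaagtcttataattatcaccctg
Sult1c2: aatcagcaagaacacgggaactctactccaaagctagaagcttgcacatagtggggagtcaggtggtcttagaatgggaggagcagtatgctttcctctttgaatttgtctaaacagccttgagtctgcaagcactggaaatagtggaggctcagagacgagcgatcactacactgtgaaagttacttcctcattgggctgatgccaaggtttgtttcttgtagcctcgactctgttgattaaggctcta
Ugt2b5: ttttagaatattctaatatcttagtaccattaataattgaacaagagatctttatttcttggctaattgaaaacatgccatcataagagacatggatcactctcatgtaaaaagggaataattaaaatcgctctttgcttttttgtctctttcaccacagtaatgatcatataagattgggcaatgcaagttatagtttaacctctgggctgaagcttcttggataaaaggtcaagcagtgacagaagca

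The match in the Sult1d1 window started 47 bases before the start, on the strand opposite to the gene. The windows of Sult1c2 and Ugt2b5 held none. The xenobiotic response element thus stood in 1 of 57 member windows (1.75%), against 4.19% of all 27025 windows.

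The genes that supply and surround the conjugating enzymes were taken as 6 lists, whose counts stand beside the 8.51% of all and 17.4% of bright named probe sets called higher, most list genes being bright. Of 8 measured glutathione synthesis and recycling genes, 4 were higher at the nominal criterion, 0 lower, with a median difference of 0.62. Gclm, a subunit of the enzyme that starts glutathione synthesis, read 10.24 and 9.83 with maltodextrin, against 8.97 and 8.63 in controls. Chac1, a glutathione-degrading enzyme, read 6.75 and 6.84 with maltodextrin, against 5.82 and 5.68 in controls, and Gsr, glutathione reductase, read 10.43 and 10.46 with maltodextrin, against 9.85 and 9.46 in controls. The groups of all 3 genes were apart, Gclm and Chac1 met the criterion in all 4 fits without an array, and Gsr missed it without either maltodextrin array. Ggt6 was the other gene called. Of the 4 genes not called, Gclc and Ggt1 had positive differences, and Gss and Slc7a11 negative ones, of -0.31 and -0.35. Gss, glutathione synthetase, read 8.08 and 7.94 with maltodextrin, against 8.09 and 8.55 in controls. Both maltodextrin arrays of Gss thus lay below both control arrays. Of 8 genes for UDP-glucuronate and PAPS supply 1 was higher, the PAPS synthase Papss2, at 12.13 and 11.43 with maltodextrin, against 10.84 and 11.02 in controls. Papss2 missed the criterion without maltodextrin 3, control 1 or control 2. Ugdh, which makes UDP-glucuronate, read 11.48 and 10.43 with maltodextrin, against 10.50 and 10.81 in controls, with overlapping groups.

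Of 11 xenobiotic sensors and their partners 2 were higher and 0 lower: Nfe2l2, which encodes NRF2, and Nr1i2, the pregnane X receptor. Nr1i2 read 9.33 and 9.23 with maltodextrin, against 8.71 and 8.41 in controls, a difference of 0.72 ± 0.20 (limma adjusted p of 0.281). Its groups did not overlap, and it missed the criterion without either maltodextrin array and without control 2. Nfe2l2 missed it without maltodextrin 3. Ppara, a fatty acid receptor, had the largest difference of the list, 0.94, and missed the criterion, at 8.33 and 6.94 with maltodextrin, against 6.48 and 6.90 in controls. Of 10 NRF2 targets that are no members 2 were higher and 0 lower, with a median difference of 0.12. Nqo1, a quinone reductase often used as an NRF2 readout, read 7.75 and 6.71 with maltodextrin, against 6.08 and 6.15 in controls, and missed the criterion without maltodextrin 3, control 1 or control 2. Of 10 export transporters 0 met the criterion in either direction, and Slc22a18 had the largest difference, at 9.42 and 8.60 with maltodextrin, against 8.71 and 7.30 in controls, with overlapping groups. Of 18 other conjugation and hydrolysis enzymes 7 were higher and 0 lower, with a median of 0.51. Arsa, a lysosomal sulfatase, read 6.74 and 7.01 with maltodextrin, against 5.99 and 5.96 in controls, and missed the criterion without maltodextrin 4. Tpmt, the thiopurine methyltransferase, read 8.44 and 8.06 with maltodextrin, against 7.48 and 7.24 in controls, and Gstz1, the zeta-class transferase, read 8.59 and 8.49 with maltodextrin, against 7.56 and 7.85 in controls. Tpmt missed the criterion without maltodextrin 3, and Gstz1 without either maltodextrin array.

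**Figure D5:**
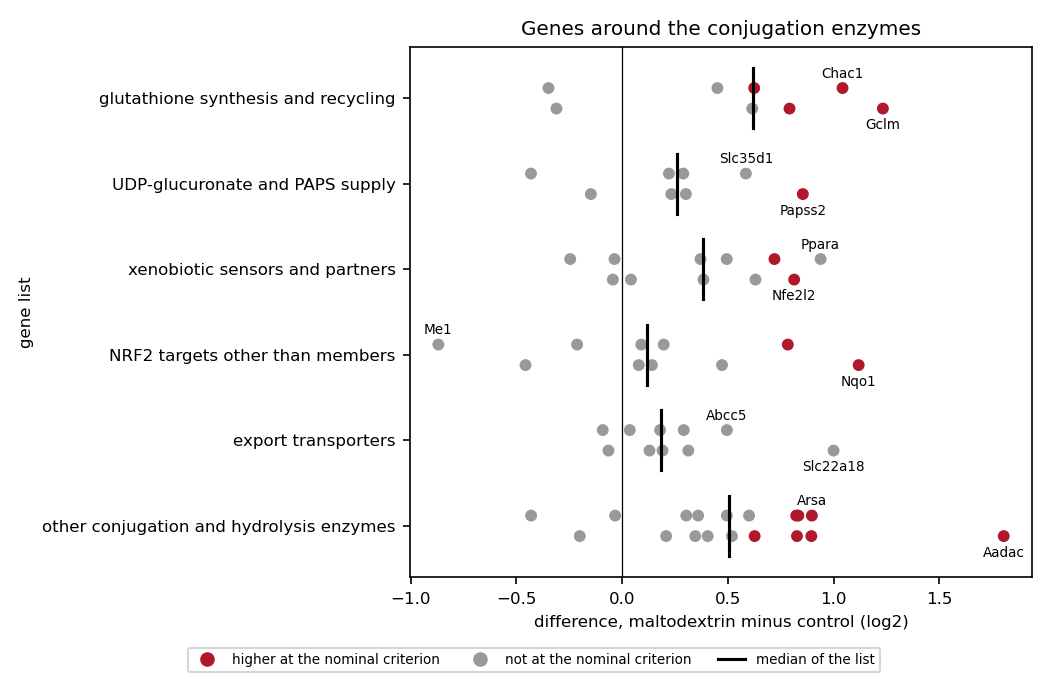
Difference of group means, maltodextrin minus control (log2, x axis), for each measured gene of the 6 lists; red points are higher at the nominal criterion, grey points are not, and bars are list medians. The glutathione list has the highest median, 0.62, and the export list has 0 red points.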

How the data were processed

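Total RNA from 4 colon samples was measured on GeneChip Mouse Gene 2.0 ST arrays. The values deposited by the authors are log2 intensities of 41345 probe sets. Their table of the comparison has 33793 rows, each with a linear ratio, a fold written as a signed score (negative where lower with maltodextrin), an unadjusted p-value and a step-up one, per the file headers. The submitters' processing notes name Partek 6.6. How background, normalization and summarization were handled is not given in the sources used here, so compression of low values cannot be checked. The authors' p-values were within 0.00064 of those from an equal-variance test of these values, named the methods' t-test here.

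Samples were grouped by their labels, and 32202 probe sets were named from the comparison table. All 68 members were found in the RefSeq gene table (GRCm38.p6), which gave the positions. The file marks 6 members' probe sets (Gsta1, Gstp2 and Sult2a1 to Sult2a4) as matching several places. limma 3.58.1 (R 4.3.3), tested on simulated data, was fitted without covariates to all named probe sets, with Benjamini-Hochberg adjustment over all of them. Levels of different genes were set side by side to choose which to name and to call them bright or dim. For marker lists they were also combined into medians and linear sums per array, and the brightest probe sets weigh most in such sums.

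In each family the members at the nominal criterion with a mean above the receptor level, the 2 brightest members and those whose arrays of 1 group differ by over 2 log2 units were named in full, and in each list genes among the 4 largest differences, together with Rbp2 and Tat, chosen after their values were seen. Other genes with a value per array, the count of probe sets high on a single array and the choice of promoters were added after values were seen. The members and lists were chosen with earlier results of these data known. Promoter windows were listed for 57 members. Part of the sensor list and of the motif search is not reported here. Alternatives changed the filter, scaling, rows fitted, variance model, test, threshold, probe set per gene, use of unique probe sets and arrays.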

Additional observations from a re-analysis of the deposited data

How the results depend on the processing

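No paired analysis was possible because sample numbers run from 1 to 4 through both groups, which share none. The 12 members called higher became 5 by the methods' t-test, 5 by the authors' deposited fold and p-values and 6 at a fold of at least 2, and leaving out single arrays gave 6 (without maltodextrin 3) to 17 (without maltodextrin 4). The 1 member called lower became 0 under the same 3 alternatives and with unique probe sets alone, and 0 (without maltodextrin 3) to 4 (without control 2) when arrays were left out. The share called higher was 8.82% of members and 3.02% of all named probe sets without maltodextrin 3, and 25.0% and 4.44% without maltodextrin 4. The share called lower without control 2 was 5.88% of members and 12.1% of all. The median of the members, 0.11, became 0.50 over the 39 members with a mean of at least 5, where that of all probe sets was 0.14. It became 0.0 with control 1 against maltodextrin 4 alone, a setting chosen after the data were seen, and 0.09 to 0.23 without single arrays. No member passed the adjusted threshold in any setting run, while 2.81% of all named probe sets did so without control 1, 2.08% without control 2 and 0.0% with all arrays. A further quantile normalization turned the sign of 10 members, 7 of them to positive and none with a difference over 0.15 in size before it. The named ones were Ugt1a1 (-0.026), Gstp2 (-0.118) and Mgst2 (-0.155). Leaving out single arrays turned the sign of 6 named members: Ugt1a1 (-0.263 to 0.443, also -0.074 without control 2), Gstp2 (-0.196 to 0.26, also -0.068 without maltodextrin 3), Mgst2 (-0.173 to 0.222, also -0.149 without control 1), Ces1c (-1.457 to 1.233), Ces1f (-0.05 to 4.164) and Ces2c (-0.179 to 0.893). The causes were not tested. Gstm7 and Gstt2 kept their calls in all 14 alternatives. Dim probe sets, 34 of the 68, limit what can be said of their genes.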

Other observations

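Aadac and Me1, which lie outside the 68 members, had differences of opposite sign. Aadac, an arylacetamide deacetylase that hydrolyses drug and lipid esters, had the largest difference of the other conjugation and hydrolysis enzymes. It read 6.38 and 5.61 with maltodextrin, against 4.10 and 4.28 in controls, with non-overlapping groups and a mean at or below the receptor level. The difference was 1.80 ± 0.31 on the log2 scale (SE, 2 arrays a group; limma adjusted p of 0.232). Me1, the cytosolic malic enzyme and an NRF2 target, had the largest negative difference of its list, at 7.45 and 6.15 with maltodextrin, against 6.97 and 8.36 in controls. Its groups overlapped, and it met the criterion in neither direction.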
